A study of Oryza sativa with 20 samples.

Results

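The genes described here serve ascorbate synthesis and thiol redox chemistry in rice seedlings that were moved to 10°C. They were taken by gene name from the rice gene annotation: GME-1 and GLDH1 of ascorbate synthesis, the glutathione reductase GR, the methionine sulfoxide reductase MSRA5, the thioredoxin-like OsTDX and the metallothionein MT2C. These 6 genes were found on 8 of the 6080 features of the array, since GME-1 (features 3432 and 1156) and MT2C (features 784 and 5401) are each spotted from 2 different cDNA clones. All 8 features had a value in every spot, and all 8 were among the 5926 features tested. The seedlings were of CT6748-8-CA-17, a japonica cultivar described as chilling tolerant, raised at 29°C to the S3 stage. Chilling at 10°C lasted 0.5, 2, 6, 12 or 24 h under continuous light, shoots were then collected, and each chilled sample was set against a control of the same duration kept at 29°C. There were 2 independent biological replicates per time point, which gives 10 biological samples on 10 slides, with every feature spotted 2 times per slide. The chilled sample carried Cy3 and its control Cy5 on the same slide, so each value below is the log2 of chilled divided by control, where 1 means a doubling in the chilled seedlings and 0 means no difference. This is a single cultivar, and the number of seedlings behind a sample is not given in the sources used here.

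Ascorbate is the main water-soluble antioxidant of leaves, and its synthesis from sugar nucleotides runs through GDP-mannose and L-galactose. GME, GDP-mannose 3,5-epimerase, supplies GDP-L-galactose, and GLDH, L-galactono-1,4-lactone dehydrogenase, carries out the last step at the inner mitochondrial membrane. Ascorbate that has been oxidised in detoxifying hydrogen peroxide is regenerated with glutathione, and glutathione reductase restores the reduced glutathione with NADPH. Methionine sulfoxide reductases of the A class repair oxidised methionine in proteins, usually with thioredoxin as the electron donor. Thioredoxins pass electrons to protein disulfides, and metallothioneins are small cysteine-rich proteins that bind metals and can scavenge oxidants.

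The 2 columns of replicate 2 at 2 h were multiplied by -1, because as deposited that replicate ran opposite to replicate 1 across the array (r = -0.54 as deposited and 0.54 after turning, across features, which are not independent replicates). An exchange of the dyes on that slide and an inversion of its ratio cannot be told apart. The dyes were not swapped on any slide by the authors' account, so a dye effect common to all slides cannot be told apart from a change in the chilled seedlings. The 0.5 h replicates stood apart, with a correlation across features of 0.13 between them, against 0.42 to 0.54 at the later times. The median ratio of the array lay above 0 at all 5 time points, at 0.14, 0.31, 0.02, 0.12 and 0.14 from 0.5 to 24 h. Because the table holds ratios and no intensities, transcript levels cannot be compared between genes, the shoot tissue cannot be checked against its marker genes, and signal over background is unknown. In whole shoots, fewer cells that express a gene and less transcript per cell cannot be told apart.

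Across the 5 time points the median ratio of the 8 features, taken over replicate means, was -0.15, 0.22, 0.48, 0.44 and 0.13. That was above the array median at 6 and 12 h and below it at 0.5, 2 and 24 h. In single samples the order differed. At 24 h the members' median was above the array's in both replicates (0.23 against 0.19, and 0.37 against 0.06). At 2 h it was above in replicate 1 (0.13 against 0.10) and below in replicate 2 (0.335 against 0.547). At 0.5 h it was below in replicate 1 (-0.79 against 0.22) and above in replicate 2 (0.57 against 0.16). The numbers of features above 0 were 3, 6, 7, 6 and 5 of 8, against 61.7%, 75.6%, 51.6%, 60.1% and 61.2% of the array. No feature passed limma's test at any single time point after Benjamini-Hochberg adjustment over the array (0 of 40 feature and time combinations), against 1.09% of combinations over the whole array. By time point the array's own share of calls was 2.48% at 0.5 h, 0.253% at 2 h, 0.202% at 6 h, 0.371% at 12 h and 2.16% at 24 h. At an unadjusted p under 0.05 there were 7 of 40 member combinations, all higher in chilled seedlings, against 17% over the array. A mean ratio of at least 1.8-fold, the fold rule of the study's methods, was reached in 2 of 40 combinations, GR at 6 h and MT2C feature 784 at 12 h, against 11.3% of all combinations, 6.04% at 6 h and 9.47% at 12 h. It was reached in 5 combinations without replicate 1 at 6 h and in 1 without replicate 2 at 6 h. The count of members therefore did not exceed the background of the array under any of these rules except the unadjusted p, where the shares were close. The average over the whole course was more precise, since it uses all 10 samples: MSRA5 alone passed after adjustment (1 of 8 features, against 29.9% of the array), and MSRA5, GME-1 feature 3432 and GR passed at an unadjusted p under 0.05 (3 of 8, against 41.5%). The adjusted count was 4 without replicate 1 at 0.5 h, and 2 without replicate 1 at 6 h, replicate 1 at 12 h or replicate 2 at 24 h, each time with MSRA5 among them.

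**Figure D1:**
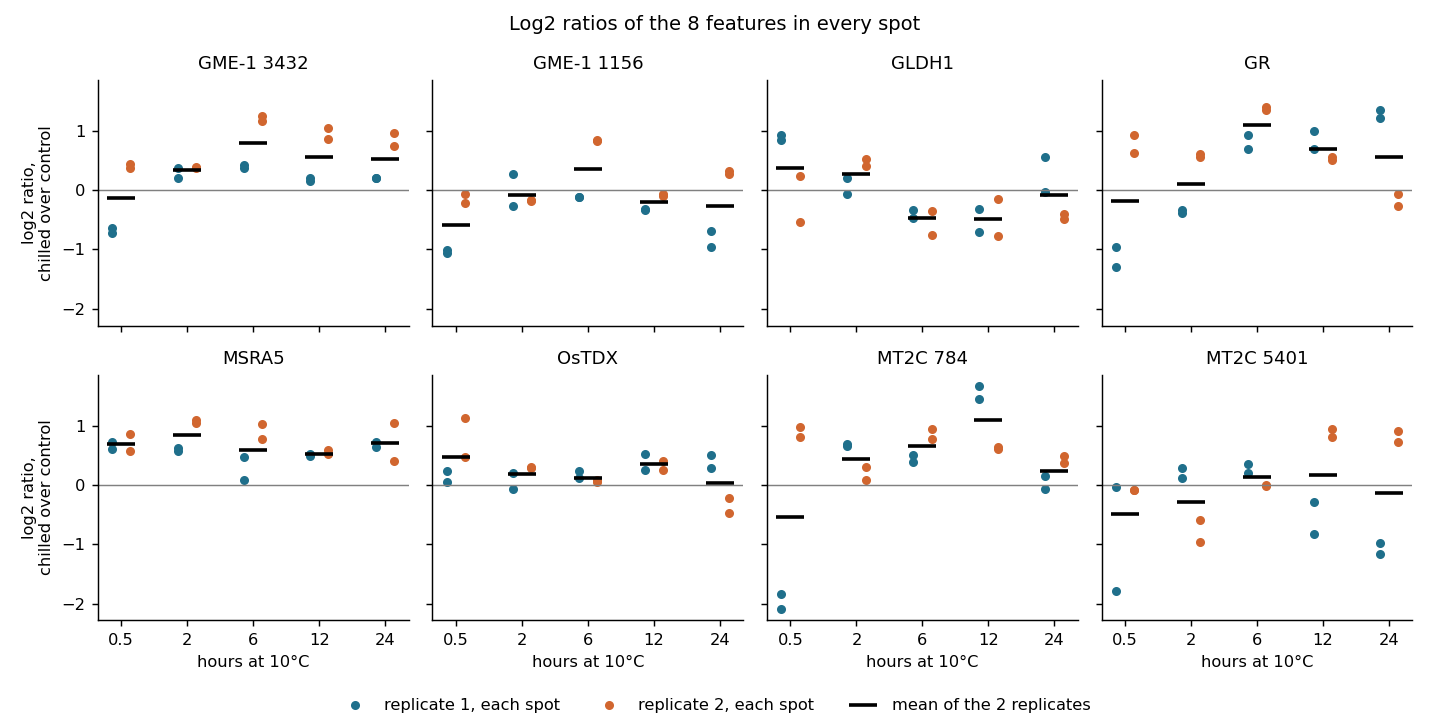
Each panel shows 1 feature, with the log2 ratio of chilled over control on the vertical axis and the hours at 10°C on the horizontal axis. Points are the 4 spots of a time point (2 duplicate spots on the slide of each replicate, coloured by replicate) and the black bar is the mean of the 2 replicates. All 20 spots of MSRA5 lie above 0, from 0.08 to 1.09, whereas GR and MT2C feature 784 have replicate 1 far below replicate 2 at 0.5 h.

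Most of the low values at 0.5 h came from 1 sample. In replicate 1 at 0.5 h the 8 features had a median of -0.79, although the median of the array in that sample was 0.22, and both GME-1 features, GR and both MT2C features were below -0.6. Such values were held by 19.0% of all features in that sample, against 2.18% to 8.91% in the other 9 samples. In replicate 2 at 0.5 h the median of the 8 features was 0.57 and none was below -0.6. The median gap between the 2 replicates was 0.96 for the members at 0.5 h and 0.70 for the array. Because the pair of 0.5 h samples disagreed, the average over the course of each of the 8 features is also given without replicate 1 at 0.5 h.

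GME-1 gave different results on its 2 features. For feature 3432 the ratios of replicates 1 and 2 were -0.68 and 0.41 at 0.5 h, 0.29 and 0.38 at 2 h, 0.39 and 1.21 at 6 h, 0.18 and 0.95 at 12 h, and 0.20 and 0.85 at 24 h. Apart from replicate 1 at 0.5 h every sample was above 0, and at each time point replicate 2 was the higher one. The largest mean was at 6 h, 0.80 ± 0.58 (SD, n = 2) or 1.74-fold, which did not pass limma's test (adjusted p = 0.436). Over the course feature 3432 averaged 0.42 (SE 0.15, 95% interval 0.09 to 0.75, 1.34-fold), with 9 of 10 samples above 0 and a limma adjusted p of 0.0558. Leaving out 1 sample moved this call across the threshold in 3 of 10 cases: without replicate 1 at 0.5 h the average was 0.53 (adjusted p = 0.0205), without replicate 1 at 6 h it was 0.50 (adjusted p = 0.0496), and without replicate 1 at 12 h it was 0.50 (adjusted p = 0.0486). With all samples kept, the average also passed when duplicate spots were not averaged but treated as a random block (adjusted p = 0.00797) and among features complete in all 20 spots (adjusted p = 0.049). It moved away from the threshold when the median of every array was set to 0 (0.28, limma adjusted p = 0.179).

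For feature 1156 the ratios of replicates 1 and 2 were -1.03 and -0.14 at 0.5 h, 0.00 and -0.18 at 2 h, -0.12 and 0.84 at 6 h, -0.32 and -0.08 at 12 h, and -0.83 and 0.30 at 24 h. Here 2 of 10 samples were above 0, and the replicates took opposite signs at 6 and 24 h. The course average was -0.16 (95% interval -0.49 to 0.18, limma adjusted p = 0.48), and -0.067 without replicate 1 at 0.5 h (adjusted p = 0.77). The 2 features nevertheless moved in parallel from sample to sample. Feature 3432 was the higher one in 10 of 10 samples, by 0.58 ± 0.26 (SD, n = 10), with a range of 0.29 to 1.03, and the features correlated at r = 0.88 (Spearman's rho = 0.83) over the 10 samples. This correlation is given as a description, since both features share their slides and any shift of a slide. With an offset of this size, the features had the same sign in only 3 of 10 samples, so the sign of the GME-1 ratio depended on the clone that was read.

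**Figure D2:**
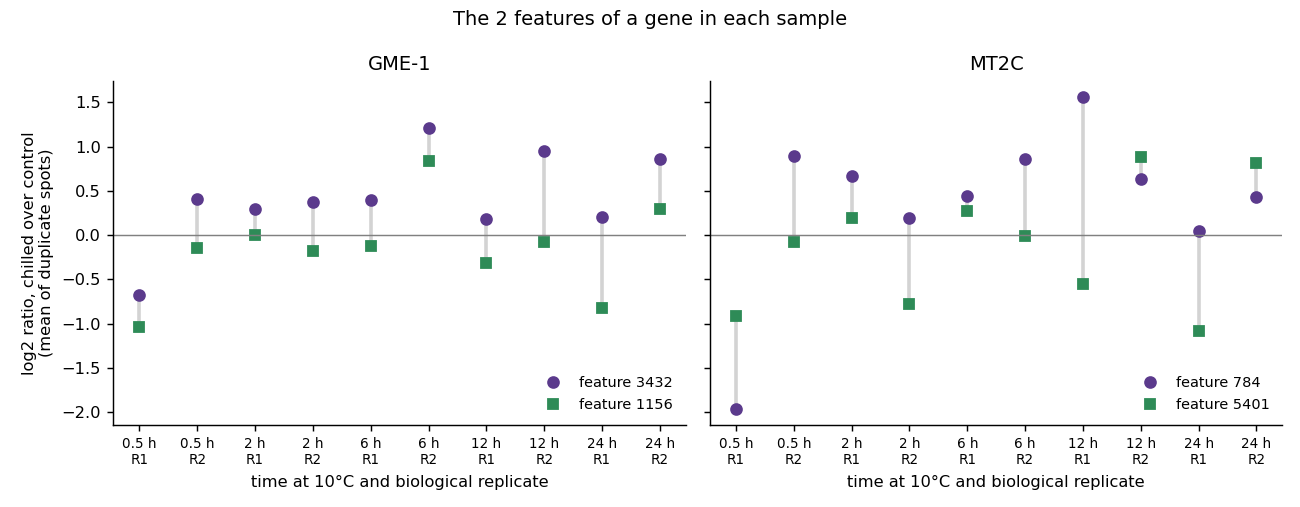
The log2 ratio of chilled over control is plotted for the 2 features of GME-1 and the 2 features of MT2C in each of the 10 biological samples, ordered by hours at 10°C and replicate. A grey bar joins the 2 features within each sample. For GME-1, feature 3432 lies above feature 1156 in all 10 samples, and for MT2C, feature 784 is the higher one in 7 of 10 samples.

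GLDH1, the last enzyme of the pathway, showed another course. Its ratios in replicates 1 and 2 were 0.89 and -0.15 at 0.5 h, 0.07 and 0.46 at 2 h, -0.40 and -0.55 at 6 h, -0.51 and -0.47 at 12 h, and 0.26 and -0.44 at 24 h. The replicates lay closest together at 6 and 12 h, where both were below 0, and they had opposite signs at 0.5 and 24 h. The means at these times were -0.48 ± 0.11 at 6 h and -0.49 ± 0.03 at 12 h (SD, n = 2), or 0.719-fold and 0.713-fold, and neither passed limma's test (adjusted p = 0.633 and 0.506). Over the course GLDH1 averaged -0.08 (95% interval -0.38 to 0.22, adjusted p = 0.683), which leaves room for a modest change in either direction, and -0.19 without replicate 1 at 0.5 h (adjusted p = 0.261). The duplicate spots of GLDH1 were also the least alike among the members, with a median gap of 0.33, so its single values are less certain than those of GME-1, whose gaps were 0.07 and 0.04. Across the 10 samples GLDH1 ran opposite to both GME-1 features, with r = -0.79 for feature 3432 and -0.72 for feature 1156, again as a description. This was not particular to GME-1, since r was -0.82 with MT2C feature 784, -0.69 with MT2C feature 5401 and -0.53 with GR. With MSRA5 and OsTDX it was 0.32 and 0.11. Replicate 1 at 0.5 h weighs on both GME-1 values, since GLDH1 was highest there (0.89) and both GME-1 features were lowest (-0.68 and -1.03). The correlations were not computed without that sample. A second rice gene, GLDH2, is annotated apart from GLDH1, and a cDNA spot cannot tell near-identical transcripts apart.

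GR, the glutathione reductase gene, reached the largest mean of the members at 6 h. Its ratios in replicates 1 and 2 were -1.13 and 0.78 at 0.5 h, -0.36 and 0.58 at 2 h, 0.82 and 1.38 at 6 h, 0.85 and 0.53 at 12 h, and 1.29 and -0.17 at 24 h. Both replicates were above 0 at 6 and 12 h only, and at 0.5, 2 and 24 h they had opposite signs. The mean was 1.10 ± 0.40 (SD, n = 2) or 2.14-fold at 6 h, with a 95% interval of 0.13 to 2.06 (limma adjusted p = 0.416), and 0.69 ± 0.23 or 1.61-fold at 12 h (adjusted p = 0.513). All 8 spots of these 2 time points lay between 0.50 and 1.41.

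Outside 6 and 12 h the spread of GR was wide. The SD of the 2 replicates was 1.35 at 0.5 h and 1.03 at 24 h, and the range of GR over the 10 samples, 2.50, was larger than that of 90.8% of the features tested, whose median range was 1.42. Its course average was 0.46 (SE 0.20, 95% interval 0.02 to 0.89, 1.37-fold), with 7 of 10 samples above 0 and a limma adjusted p of 0.103. Without replicate 1 at 0.5 h the average was 0.65 (adjusted p = 0.0208), and without replicate 2 at 24 h it was 0.60 (adjusted p = 0.0484). With all samples kept it passed when duplicate spots were treated as a random block (0.46, adjusted p = 0.0397), so the call on GR depended on these 2 samples and on the model. Setting the median of every array to 0 lowered the average of GR to 0.32, which did not pass (limma adjusted p = 0.219).

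MSRA5, which belongs to the enzymes that repair oxidised methionine, was higher in chilled than in control seedlings throughout the course. Its ratios in replicates 1 and 2 were 0.66 and 0.72 at 0.5 h, 0.60 and 1.07 at 2 h, 0.28 and 0.91 at 6 h, 0.51 and 0.55 at 12 h, and 0.68 and 0.73 at 24 h. Every sample was above 0, as were all 20 spots. Of the 5492 features with a value in all 20 spots, 304 (5.54%) were above 0 in every one and 31 were below 0 in every one. MSRA5 averaged 0.67 over the course (SE 0.12, 95% interval 0.41 to 0.93), a 1.59-fold increase, with a limma adjusted p of 0.00144 and the 423rd lowest p of the array.

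The increase in MSRA5 was of similar size at each time. Its means were 0.69 ± 0.04 at 0.5 h, 0.84 ± 0.33 at 2 h, 0.59 ± 0.44 at 6 h, 0.53 ± 0.03 at 12 h and 0.71 ± 0.03 at 24 h (SD, n = 2), or 1.44-fold to 1.79-fold, and each stayed short of the adjusted threshold on its own (adjusted p = 0.101 to 0.491). The sample range of 0.79 was narrow, with 7.17% of features showing a smaller one. The call held without any 1 of the 10 samples, replicate 1 at 0.5 h included (0.68, adjusted p = 0.00275), with averages of 0.61 to 0.73 and adjusted p of 0.00274 to 0.00853, and without replicate 2 at 2 h, the sample whose sign was turned, it was 0.62 (adjusted p = 0.0082). With the sign of that sample as deposited the average was 0.46 (adjusted p = 0.166). With the median of every array set to 0 it was 0.53 (adjusted p = 0.0048), again past the threshold. A dye effect on this feature, present on every slide, cannot be told apart from this increase.

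OsTDX is listed by the annotation also as a thioredoxin and is related by name to Arabidopsis TDX, which joins a thioredoxin domain to tetratricopeptide repeats. Its ratio was above 0 in 9 of 10 samples and 17 of 20 spots, but it did not pass the test. The ratios of replicates 1 and 2 were 0.14 and 0.80 at 0.5 h, 0.07 and 0.29 at 2 h, 0.18 and 0.07 at 6 h, 0.39 and 0.33 at 12 h, and 0.40 and -0.34 at 24 h. Replicate 2 at 24 h was the 1 sample below 0. The course average was 0.23 (95% interval -0.05 to 0.51, 1.17-fold, limma adjusted p = 0.191), an interval that holds 0 as well as an increase of up to 0.51. Without replicate 1 at 0.5 h the average was 0.30 (adjusted p = 0.0849). The 5 time point means ranged between 0.03 and 0.47. The median ratio of the array was itself above 0 at all 5 time points. With the median of every array set to 0 the course average of OsTDX was 0.095, which did not pass the test.

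MT2C, a type 2 metallothionein, had the widest range of the members on feature 784 but not on feature 5401. On feature 784 the ratios of replicates 1 and 2 were -1.96 and 0.89 at 0.5 h, 0.67 and 0.19 at 2 h, 0.44 and 0.86 at 6 h, 1.56 and 0.63 at 12 h, and 0.04 and 0.43 at 24 h. Replicate 1 at 0.5 h was the 1 sample below 0, and both of its duplicate spots were low, at -1.83 and -2.09. The mean was highest at 12 h, 1.10 ± 0.66 (SD, n = 2) or 2.14-fold (limma adjusted p = 0.307), and the course average was 0.38 (95% interval -0.11 to 0.86, adjusted p = 0.223). Without replicate 1 at 0.5 h the average was 0.66 with an adjusted p of 0.00609, so that this 1 sample decided the call. The range over the 10 samples, 3.53, exceeded that of 97.6% of the features.

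On feature 5401 the ratios of replicates 1 and 2 were -0.91 and -0.08 at 0.5 h, 0.20 and -0.77 at 2 h, 0.27 and -0.01 at 6 h, -0.56 and 0.88 at 12 h, and -1.08 and 0.82 at 24 h. The replicates had opposite signs at 4 of 5 time points, and the duplicate spots of replicate 1 at 0.5 h differed by 1.76. The course average was -0.12 (95% interval -0.56 to 0.31, limma adjusted p = 0.679), and -0.041 without replicate 1 at 0.5 h (adjusted p = 0.91). Feature 784 minus feature 5401 was 0.50 ± 0.91 (SD, n = 10), with a range of -1.05 to 2.12, and the features had the same sign in 5 of 10 samples (r = 0.39, rho = 0.35). The gap between the clones of MT2C thus changed sign from sample to sample, whereas that between the clones of GME-1 kept one sign in all 10 samples.

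Feature 5401 also shared values with another metallothionein. In all 6 spots of replicate 1 at 2, 6 and 24 h its ratio was within 0.004 of that of MT2B, for example -0.984 and -0.982 in the first spot set at 24 h, whereas in the 14 other spots the features differed by 0.29 to 2.10. At least 5 of 20 spots within 0.006 of each other were found in 61 of the 18480160 pairs of features, 6 of which included feature 5401 and none another member. This comparison was made after the values had been seen. The table holds no intensities, and whether these spots were saturated was not tested. MT2B was the only other metallothionein found by symbol, while 6 features in all shared 5 or more spots with feature 5401. The annotation crosses the names of the 2 genes as well (OsMT2b is a synonym of MT2C and OsMT2c of MT2B). A cDNA spot may not fully separate transcripts of such close relatives. Whether this had a part in the near-equal spots was not tested.

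For no member did a difference between time points pass the test. The moderated F test over the 5 times gave 0 of 8 features (adjusted p = 0.965 to 0.977), with 0 of 8 at an unadjusted p under 0.05, against 0% and 4.72% of the array. Of the 80 differences between 2 time points, 0 passed limma's adjusted threshold and 1 had an unadjusted p under 0.05, against 0.00506% and 4.63% of all such differences. That 1 was MT2C feature 784 at 12 h minus 0.5 h, 1.63 (SE 0.71, limma adjusted p = 0.603), which rests on replicate 1 at 0.5 h. The intervals were wide, for example -0.10 to 2.64 for GR at 6 h minus 0.5 h, and with 2 replicates per time the differences between times were known only roughly.

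Among the 705 other features with a gene name and all 10 samples, the ones most like each member over the 10 samples were found by Pearson's r, which is given as a description because all features share the slides. GME-1 feature 3432 was closest to GEP (r = 0.93), the pyruvate dehydrogenase subunit gene PDHE1-A (0.93) and the pyruvate kinase gene OsPK2 (0.91), and GME-1 feature 1156 to FOR1 (0.88), GME-1 feature 3432 itself (0.88) and 4CLL4 (0.87). GLDH1 was closest to the calcium sensor gene CBL2 (0.94), the iron transporter gene OsVIT1 (0.94) and ARP3 (0.93). GR was closest to the cytochrome P450 gene CYP71Z7 (0.94), with MFP (0.87) and RAP (0.86) after it, and without replicate 1 at 0.5 h these were 0.91, 0.71 and 0.70. Leaving out that sample thus lowered the likeness to MFP and RAP more than that to CYP71Z7.

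MSRA5 was closest to the protein kinase gene CIPK24 (r = 0.85), Os-RSZ21a (0.79) and ZEP1 (0.78), and OsTDX to D2HGDH (0.75), DSM3 (0.70) and the phytochrome gene PhyB (0.69). MT2C feature 784 was closest to the proteasome subunit gene OsRPN7 (0.98), the ribosomal protein gene RPL5 (0.96) and the translation initiation factor gene eIF-4E-1 (0.96), which were 0.90, 0.87 and 0.83 without replicate 1 at 0.5 h. MT2C feature 5401 was closest to IAA1 (0.88), GOS2 (0.85) and the ascorbate peroxidase gene APX1 (0.84). The partners were not searched for again without replicate 1 at 0.5 h. For those already found, OsRPN7 and MT2C feature 784 (0.90) were then no closer than CYP71Z7 and GR (0.91). The same held against CBL2 and GLDH1 (0.92) and against GOS2 and MT2C feature 5401 (0.92).

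Other redox genes were taken by symbol from a list of ascorbate, glutathione, thioredoxin, methionine sulfoxide reductase, metallothionein, catalase and superoxide dismutase names. The list matched 14 features of 13 genes. No superoxide dismutase and no further methionine sulfoxide reductase was among them. The only match to a glutathione name was FALDH, through its synonym GSH-FDH. Of the 14 course averages 7 were above 0, against 65.7% of the array. The median of the 14 was 0.04, against 0.15 for the array and 0.30 for the members. Over the course 5 of the 14 passed limma's adjusted test, 3 higher and 2 lower in chilled seedlings, against the 29.9% of the array given above. The split into higher and lower depends on the scaling: 89.0% of the array's calls over the course were higher, and 61.4% when the median of every array was set to 0. Ascorbate peroxidases were called in both directions. APX2, a cytosolic ascorbate peroxidase, was lower in chilled seedlings, with an average of -0.78 (0.584-fold, limma adjusted p = 0.000989). Its samples were -1.57 to -0.33, all 10 below 0. In replicate 2 at 6 h, however, its duplicate spots were 0.22 and -1.99, the second in the column whose source name gives another time.

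PRXIIF, a mitochondrial peroxiredoxin, rose by 0.79 on average (1.73-fold, limma adjusted p = 0.00431), with 9 of 10 samples above 0. APX7, a chloroplast ascorbate peroxidase, rose by 0.40 (1.32-fold, adjusted p = 0.0235), and this call was lost without 6 of the 10 samples in turn: replicate 2 at 2 h (adjusted p = 0.0655), replicate 1 or 2 at 6 h (0.0555 and 0.081), replicate 1 or 2 at 12 h (0.075 and 0.0555) and replicate 1 at 24 h (0.0731). The catalase gene CAT-B, which removes hydrogen peroxide without ascorbate, was called in both directions: feature 3826 rose by 0.76 (1.69-fold, adjusted p = 0.00128) with all 10 samples above 0, and feature 1152 fell by 0.47 (0.721-fold, adjusted p = 0.0203) with 9 of 10 below 0. As with GME-1 and MT2C, the clones of a gene did not give the same answer, and the call for feature 1152 was lost without replicate 2 at 2 h (adjusted p = 0.0592), replicate 1 at 6 h (0.0591), replicate 1 at 12 h (0.0811) or replicate 1 at 24 h (0.0744).

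At single times 1 of 70 combinations of these 14 features passed, APX2 at 24 h, with samples of -0.95 and -1.57 in replicates 1 and 2, a mean of -1.26 ± 0.44 (SD, n = 2) or 0.419-fold, and a limma adjusted p of 0.0459. This call was lost without either replicate at 2, 6, 12 or 24 h, with adjusted p values of 0.0513 to 0.0668 for 2, 6 and 12 h, and of 0.242 and 0.274 without replicate 1 or 2 at 24 h. It was also lost with either spot set alone (0.0795 and 0.103), with duplicate spots as a random block (0.18), with no filter on missing values (0.0764), without the conflicting column at 6 h (0.05005) and with the sign of replicate 2 at 2 h as deposited (0.26). The other 9 features had averages between -0.16 and 0.42 and were not called, among them MDAR5, which regenerates ascorbate (0.42, adjusted p = 0.0711), and MT2B (0.19, adjusted p = 0.425).

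**Figure D3:**
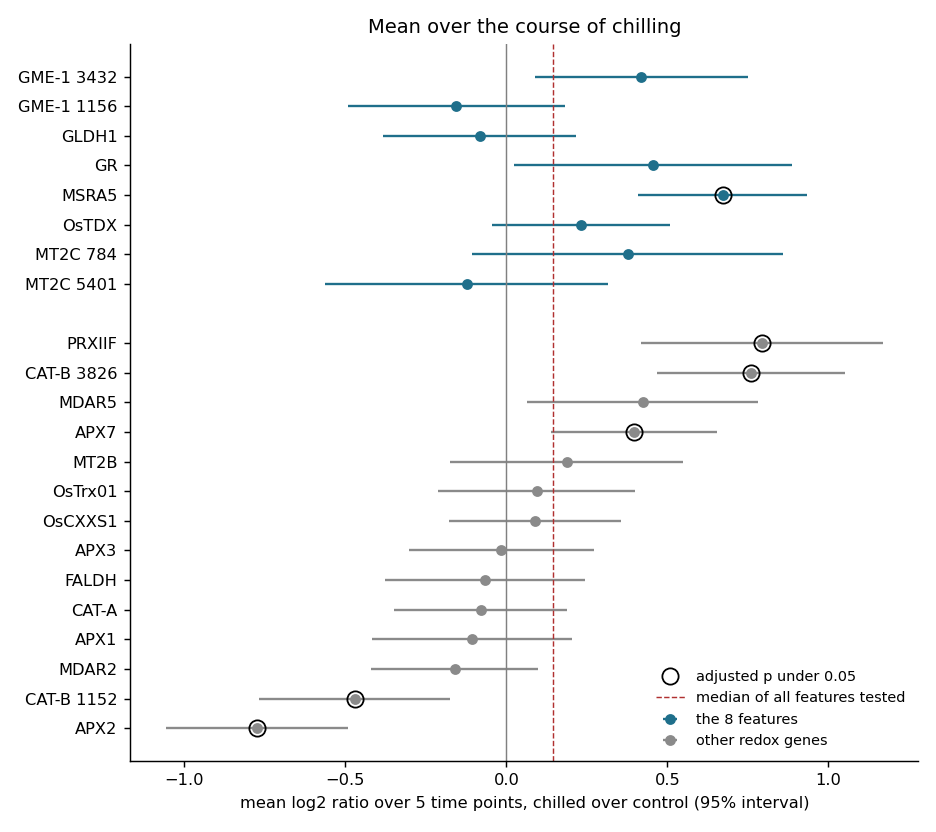
The mean log2 ratio of chilled over control over the 5 time points is drawn with its 95% interval for the 8 features of the 6 genes (above) and the 14 features of other redox genes (below). Ringed points have a limma adjusted p under 0.05 and the dashed line is the median of the array, 0.15. MSRA5 is the 1 ringed feature of the upper group, at 0.67, and the 2 features of CAT-B are ringed on opposite sides of 0.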

How the data were processed

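The deposited table holds log2 ratios of chilled (Cy3) over control (Cy5) seedlings in 20 columns, 2 spot sets on each of 10 slides, and 0 columns belonged to no sample. The authors scanned the slides with GenePix, subtracted the background from the median intensities, took the ratio of medians with the Acuity software and scaled it to a mean ratio of 1. The deposited column medians, with the sign of replicate 2 at 2 h turned, lay between -0.03 and 0.63, with 53 to 194 missing values, and no further scaling was applied. The column of the second spot set of replicate 2 at 6 h carries a source name with another time in its chilled channel. It was kept at 6 h after its title and protocol.

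The log2 values of the duplicate spots on a slide were averaged. A single limma model (version 3.58.1, R 4.3.3) with 1 mean per time point covered the 5926 features measured in each of the 10 biological samples (5 residual and 7.81 prior degrees of freedom). Means, their average over the 5 times and an F test over the 4 differences from 0.5 h were tested with Benjamini-Hochberg adjustment at 0.05 over the array. The 10 differences between time points were added after the values had been seen. The fit was tested on simulated data. Figures and counts used Python 3.11.15.

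Gene names come from RefSeq, matched through the platform's gene identifiers: of 6080 features 4172 have 1 gene, 97 have several, 1811 have none here, and 711 have a gene name. Named genes are the features of the 6 members, the 3 named features most correlated with each, and the features of the symbol list, of which those past the test were to be named. MDAR5, MT2B and APX3 were named after their values had been seen. A feature matched by the synonym TRX1 was set aside, because that name is OsSET33's, a trithorax gene. Members, lists and the sign of replicate 2 at 2 h were chosen with earlier results of these data known. The alternatives tried concern scaling, spot sets, missing values, the estimate of spread, the replicate number, the conflicting column, averaging, that sign, fold rules and leaving out samples. The number of arrays limits the precision.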

Additional observations from a re-analysis of the deposited data

Results flagged for a closer look

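The chilled over control ratios of GLDH1 lay below 0 in both replicates at 6 h (-0.40 and -0.55) and at 12 h (-0.51 and -0.47), and above 0 in both at 2 h (0.07 and 0.46). The difference was -0.74 for 6 h minus 2 h (limma adjusted p = 0.856) and -0.75 for 12 h minus 2 h (adjusted p = 0.821), so neither passed the test. With the median of every array set to 0 the mean at 2 h was -0.04.

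MT2B, a metallothionein gene, lay below 0 in both replicates at 24 h (-1.08 and -0.09), and above 0 in both at 0.5 h (0.41 and 1.14) and at 2 h (0.20 and 0.13). The difference was -1.36 for 24 h minus 0.5 h (limma adjusted p = 0.994) and -0.75 for 24 h minus 2 h (adjusted p = 0.852). Neither passed the adjusted test. In replicate 2 the duplicate spots of MT2B lay on both sides of 0, at 0.421 and -0.605 at 24 h and at 0.347 and -0.085 at 2 h. The sign of these samples is therefore uncertain. The spots of MT2B in replicate 1 at 2 and 24 h were among those nearly equal to the spots of an MT2C feature, as described above. With 2 samples per time point, no group was large enough for a check of single outlying samples.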

How the results depend on the processing

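The calls of the members at single times (0) and for differences between times (0) were the same under every alternative. The count over the course (1, MSRA5) was 3 when duplicate spots were not averaged but treated as a random block, 2 with features complete in all 20 spots, 0 with the sign of replicate 2 at 2 h as deposited, and 1 to 4 without 1 sample. It was 4 without the 0.5 h samples and 4 without those of 0.5 and 2 h, 2 alternatives added after seeing the data. Counts over the array moved more. Single-time calls (324) were 152 with array medians at 0, 202 and 63 with spot set 1 or 2 alone, 89 with no filter on missing values, 505 with a robust spread, 0 with the deposited sign, 51 without 0.5 and 2 h, and 136 to 539 without 1 sample. Calls over the course (1769) were 0 with the deposited sign and 1151 to 1904 without 1 sample, and F test calls (0) were 1 with spot set 1, 1 with spot sets apart, 3 with no filter and 0 to 16 without 1 sample. Member values past the fold rule (2) were 9 at 1.5-fold and 1 to 5 without 1 sample, and array values (3341) were 2216 with medians at 0, 6408 at 1.5-fold, 2204 at 2-fold and 1693 without 0.5 and 2 h. The cause of these shifts was not tested.

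With array medians at 0 the ratios at 2 h turned to -0.041 for GLDH1, -0.20 for GR and -0.13 for OsTDX, and OsTDX at 24 h to -0.085. Spot set 1 alone gave 0.039 for GME-1 feature 1156 at 2 h and 0.0395 for GLDH1 at 24 h, and spot set 2 alone gave -0.093 for OsTDX at 24 h. With the deposited sign the 2 h ratios were -0.043 and 0.0895 for GME-1 features 3432 and 1156, -0.20 for GLDH1, -0.47 for GR, -0.23 for MSRA5, -0.11 for OsTDX and 0.48 for MT2C feature 5401, whose course average became 0.031, and 0.055 without 0.5 and 2 h. Leaving out 1 sample gave ranges that crossed 0: at 0.5 h -0.68 to 0.41 for GME-1 feature 3432, -0.15 to 0.89 for GLDH1, -1.13 to 0.78 for GR and -1.96 to 0.89 for MT2C feature 784; at 2 h -0.18 to 0.00 for GME-1 feature 1156, -0.36 to 0.58 for GR and -0.77 to 0.20 for MT2C feature 5401; at 6 h -0.12 to 0.84 for GME-1 feature 1156 and -0.008 to 0.27 for MT2C feature 5401; at 12 h -0.56 to 0.88 for MT2C feature 5401; at 24 h -0.83 to 0.30 for GME-1 feature 1156, -0.44 to 0.26 for GLDH1, -0.17 to 1.29 for GR, -0.34 to 0.40 for OsTDX and -1.08 to 0.82 for MT2C feature 5401; and over the course -0.19 to 0.020 for GLDH1 and -0.31 to 0.066 for MT2C feature 5401. Of the other values of single features, 1316 kept direction and side of the threshold, 36 lost it and 16 gained it. The 5 calls of other redox genes over the course were all lost with the deposited sign, that of APX7 also with array medians at 0 (0.26, adjusted p = 0.0963) and with spot set 2 alone (0.29, adjusted p = 0.134), and that of CAT-B feature 1152 with spot set 1 alone (-0.38, adjusted p = 0.0712) and without 0.5 and 2 h (-0.48, adjusted p = 0.0607), beside the samples left out in turn. The APX2 call at 24 h was lost without 0.5 and 2 h (adjusted p = 0.0558).

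The labels give the replicate numbers no shared batch, and deviations of the same number correlated at -0.30 to 0.34 over the 10 pairs of time points, over 0.1 in 5 of them, so the numbers were not treated as pairs. With the replicate number as a block the course count of the members was 2, with GME-1 feature 3432 added at an adjusted p of 0.0173, the APX2 call at 24 h was lost (adjusted p = 0.0526), and the array counts were 378 at single times and 1913 over the course. Duplicate spots correlated at 0.75. Signal over background could not be given.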
